A study of Caenorhabditis elegans with 6 samples.

Results

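The genes described here encode the enzymes that carry carbon from pyruvate, oxaloacetate and stored fat toward glucose in the nematode Caenorhabditis elegans. They are the 3 genes for PEP carboxykinase, pck-1, pck-2 and pck-3, together with pyc-1 (pyruvate carboxylase), fbp-1 (fructose 1,6-bisphosphatase) and icl-1 (isocitrate lyase and malate synthase). These 6 genes were chosen by the reactions they catalyse, with earlier results of these data known, out of 19973 protein-coding nuclear genes in the annotation. A binding site was assigned to one of them when any base of a ChIP-seq peak lay within 3000 bp of its gene body on genome build WBcel235. A peak within that distance can also lie near, or inside, a neighbouring gene, so the neighbours are named with their own distances. With this rule 9 peaks of egl-9 mutants and 0 peaks of the control strain were found.

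The data came from ChIP-seq (sequencing of the DNA that is precipitated with a chromatin protein) of HIF-1::GFP in whole L4 larvae, the last larval stage, grown at 20 °C in air on NGM plates with OP50 bacteria. The control strain OR3349 carried odIs131[hif-1::gfp]; hif-1(ia4), and strain OR3350 carried the same alleles together with egl-9(sa307). Both strains therefore lacked endogenous HIF-1 and expressed the tagged protein from odIs131, a single line with an integrated genomic fosmid, and both carried unc-119(ed3) rescued by unc-119(+) on the transgene. No strain without GFP was analysed here. Each genotype had 2 ChIP replicates and 1 pooled input, which makes 6 libraries, and the deposited data hold 1 peak list per genotype after a filter for reproducibility between the replicates. No value of a single replicate and no library depth is therefore given here, and no spread between replicates could be attached to any value. Whole animals were pooled, so a site used in few cells and a weak site in many cells cannot be told apart.

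Gluconeogenesis runs most reactions of glycolysis backward and replaces the irreversible ones with its own enzymes. Pyruvate carboxylase makes oxaloacetate from pyruvate, PEP carboxykinase turns oxaloacetate into phosphoenolpyruvate (PEP), and fructose 1,6-bisphosphatase removes a phosphate near the end of the path. The glyoxylate cycle lets C. elegans, unlike mammals, make glucose from the carbon of fat, and ICL-1 carries both of its enzyme activities in a single polypeptide. HIF-1 is the transcription factor of the hypoxia response. EGL-9, its prolyl hydroxylase, marks it for destruction when oxygen is present, so that egl-9 mutants accumulate HIF-1 in air. HIF-1 is known to bind DNA at hypoxia response elements (HREs). Their core, ACGTG or GCGTG, was searched on both strands.

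The sequences below show what lay under the peaks on which the comparison of these genes turns, and what lay at the promoter of the paralog with no peak. They were read from WBcel235, are written 5′ to 3′ along the strand of the named gene, and carry HRE cores of either strand in capitals, so a core on the opposite strand appears as CACGT or CACGC. The upstream site of pck-1 is shown whole, because it held the highest signal of the 9 peaks. The downstream site of pck-1 is shown as the 201 bases at its centre. The pyc-1 site is the peak at its transcription start site (TSS), without the 14 bases of that window that belong to the annotated transcript. The icl-1 site is shown because it has a higher signal than the pck-1 downstream site and no core within 100 bp of its centre. At the edge of that window, 25 bases that belong to transcripts were left out. The pck-3 sequence is the 200 bases before its TSS, where a core was present and no peak was called.
pck-1 upstream site, III:67169-67340, minus strand: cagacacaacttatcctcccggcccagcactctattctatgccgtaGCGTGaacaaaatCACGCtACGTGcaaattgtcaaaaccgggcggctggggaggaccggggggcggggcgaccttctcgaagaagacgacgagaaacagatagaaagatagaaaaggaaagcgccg
pck-1 downstream site, III:62136-62336, minus strand: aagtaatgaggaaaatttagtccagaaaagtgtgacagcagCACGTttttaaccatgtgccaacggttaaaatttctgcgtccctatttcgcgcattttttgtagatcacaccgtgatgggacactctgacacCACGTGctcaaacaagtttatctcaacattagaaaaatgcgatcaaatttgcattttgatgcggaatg
pyc-1 site at the TSS, V:11822530-11822716, minus strand: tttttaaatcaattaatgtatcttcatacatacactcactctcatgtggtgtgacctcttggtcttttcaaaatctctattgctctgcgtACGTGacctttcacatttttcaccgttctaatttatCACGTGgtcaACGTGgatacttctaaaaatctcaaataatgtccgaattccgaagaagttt
icl-1 downstream site, V:723953-724128, minus strand: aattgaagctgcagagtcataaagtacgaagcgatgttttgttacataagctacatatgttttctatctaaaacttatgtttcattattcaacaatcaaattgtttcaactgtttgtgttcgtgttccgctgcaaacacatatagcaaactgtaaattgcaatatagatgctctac
pck-3 promoter, IV:5896441-5896640, plus strand: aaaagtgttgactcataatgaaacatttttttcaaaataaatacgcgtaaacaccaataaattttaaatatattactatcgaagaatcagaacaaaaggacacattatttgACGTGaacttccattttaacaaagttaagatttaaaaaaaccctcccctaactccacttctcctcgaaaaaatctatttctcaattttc

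In the pck-1 upstream site the 3 capitalised cores stand close together near the middle, in a stretch that is followed by runs of G and C. In the pyc-1 site the cores lie in a sequence rich in A and T, and one of them is the palindrome CACGTG, which reads as a core on either strand. The pck-1 downstream site also holds CACGTG. The pck-3 promoter holds a single core with no called peak over it. The paralogs themselves are related genes: the longest coding sequences of pck-1 (1953 bp) and pck-2 (1962 bp) were identical at 71.0% of 1920 aligned bases, while pck-3 (1872 bp) matched pck-1 at 58.4% of 1730 aligned bases and pck-2 at 59.5% of 1757.

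Peaks were found near 5 of the 6 genes in egl-9 mutants, all but pck-3. Across the genome 5.78% of protein-coding genes, or 1154, had a peak within the same distance. In the control strain 0 of the 6 genes had one, where 0.506% of all genes, or 101, did. The 6 genes were chosen with earlier results of these data known, and no test was made of these counts. The 2 lists differ in size, 604 against 52 nuclear peaks. Signal is the strength given to a peak by the caller SPP and was not scaled between the lists. The lack of a control peak near these genes is therefore given as a count only, and how far binding at these sites differed between the genotypes was not tested. Genes with a peak were somewhat longer than all genes, with a median length of 2379 bp against 2027 bp, and the 6 genes ranged from 2472 bp for pck-3 to 5965 bp for pck-2.

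The 9 peaks were distinct and did not share a place in the list. Their signals, in descending order, were 272.3 upstream of pck-1, 120.1 and 112.4 upstream of pyc-1, 86.42 downstream of icl-1, 82.86 downstream of pck-1, 77.63 upstream of fbp-1, 72.51 downstream of pck-2, 57.62 downstream of pyc-1 and 55.37 inside icl-1. Their median was 82.86, beside 76.74 for all 604 peaks, and 6 of the 9 lay above that list median. The pck-1 upstream peak stood apart from the other 8, at rank 17 of 604, in the top 2.82% of the list. The next, upstream of pyc-1, was at rank 117. For scale, the highest peak of the list, at rhy-1, had a signal of 838.4, and the highest of the control list, on its own scale, was at egl-9 with 670.9. Both of those genes encode negative regulators of HIF-1.

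**Figure D1:**
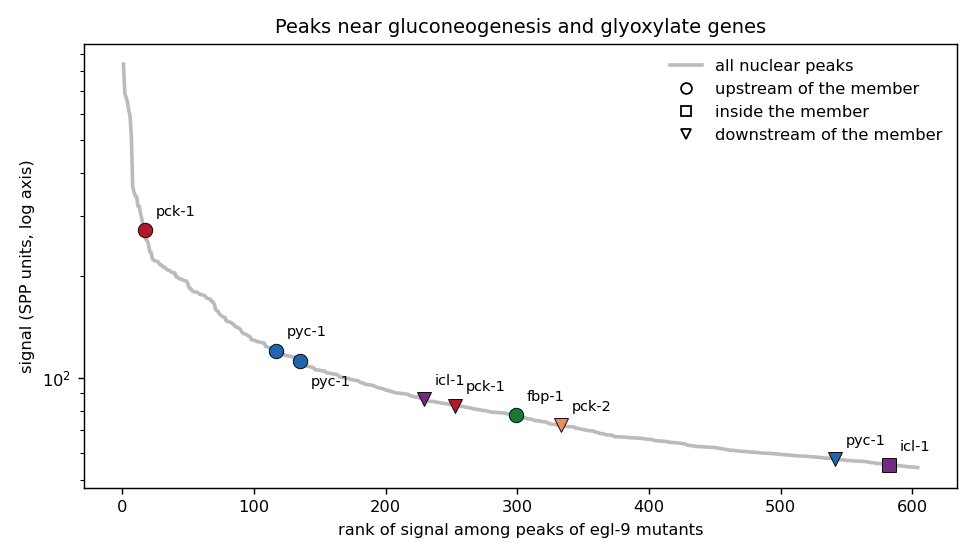
Signal of every nuclear peak of egl-9 mutants (grey line, log axis, SPP units) against its rank, with the 9 peaks near the 6 genes marked by gene (colour and label) and by position relative to the gene (shape). The pck-1 upstream peak, at 272.3 and rank 17, lies on the steep part of the curve, and the other 8 lie between rank 117 and rank 582.

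PEP carboxykinase is the committed step that returns carbon to the glycolytic path, and its 3 paralogs differed in what lay near them. The gene pck-1 (WBGene00021043, III:62888-66260, minus strand) had a peak on each side. Its upstream peak, III:67169-67340 with a signal of 272.3, was centred 995 bp before the only annotated TSS, and its nearest base lay 909 bp from the gene body. The site was intergenic, pck-1 had the nearest TSS of any protein-coding gene, and the other genes within 3000 bp were spt-4 at 1733 bp and attf-3 at 2510 bp, both of which end toward the peak. This peak was 172 bp wide. Of the 604 peaks, 557 had a width of exactly 444 bp and 43 were narrower, with a median signal of 220.4, and the other 8 peaks near the 6 genes all had the common width.

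The pck-1 upstream site held 3 cores, centred 1032, 1019 and 1013 bp before the TSS. The outer pair read GCGTG and ACGTG on the strand of pck-1, and the middle one read GCGTG on the opposite strand. Among all 604 peaks, 1.49%, or 9, held 3 cores inside 30 bp with a palindrome counted once. This spacing was counted after the sequence had been seen and is given as a description. The 201 bases at the centre had a GC content of 55.2%, the highest of the 9 peaks, beside a median of 45.3% over all peaks. None of these cores lay within 1000 bp of the TSS, and there were no other cores in the 2000 bp before pck-1.

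The downstream peak of pck-1, III:62014-62457, had a signal of 82.86 and rank 253. It was centred 652 bp past the 3′ end of pck-1 in intergenic sequence, 431 bp from the gene body. The next gene, btb-5, which belongs to a family with a BTB domain, is transcribed in the same direction, and this peak lay 1091 bp before its TSS and 869 bp from its body. The TSS of btb-5 was thus the nearest one, since that of pck-1 was 4024 bp away. The window at its centre held 3 cores, or 2 with the palindrome counted once, and the whole peak held 5. By position the site is downstream of the first gene and upstream of the second, and which of them it serves was not tested.

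The gene pck-2 (WBGene00011232, I:7866136-7872100, plus strand) had 1 peak, at its 3′ end. This peak, I:7872136-7872579, had a signal of 72.51 and rank 333, below the list median. Its nearest base lay 36 bp from the body of pck-2 and its centre 258 bp past the 3′ end. The centre was in a coding exon of suro-1, which is transcribed toward pck-2 from the opposite side, at 266 bp inside the 3′ end of suro-1 and 3196 bp from the TSS of that gene. Of the 5 annotated TSSs of pck-2, the most downstream was 2331 bp from the peak and the most upstream 6222 bp. The window held 2 cores, 1 of either form, at a GC content of 32.3%. Upstream, pck-2 had 1 core in 2000 bp, centred 1576 bp before the first TSS, and no peak over it.

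The gene pck-3 (WBGene00019151, IV:5896641-5899112, plus strand) had no peak within 3000 bp in either list. Its nearest peak in egl-9 mutants was 67871 bp away with a signal of 66.51 at rank 390, and its nearest control peak was 67886 bp away. The core in its promoter, shown above, is centred 87 bp before the TSS. A core that close to a TSS was common, since 30.9% of all genes had at least 1 in the 200 bp before the most upstream TSS and the TSS itself. Of those 6175 genes, 1.98% had a peak touching that window. The share among genes without a core there is not given here. Among the 6 genes, pyc-1 and pck-3 had cores there, and a peak touched the window of pyc-1 and did not touch that of pck-3. The 3 paralogs thus had 2, 1 and 0 peaks, and the 1 peak of high rank among them was that of pck-1.

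**Figure D2:**
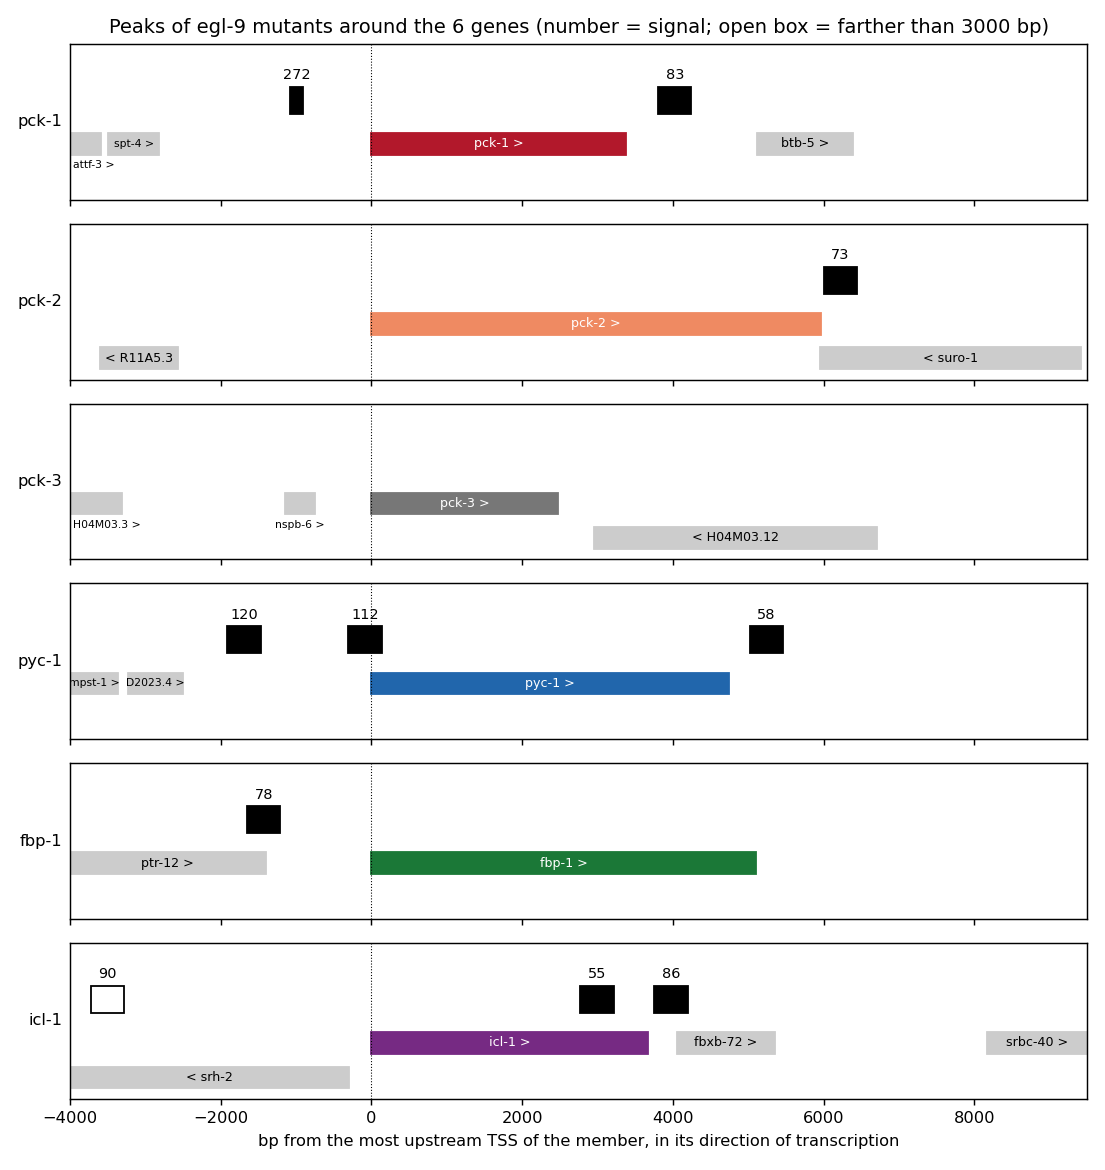
Peaks of egl-9 mutants around each of the 6 genes, in bp from the most upstream TSS (dotted line) with the named gene (coloured bar) transcribed to the right. Black boxes are the assigned peaks with their signal above, the open box is the peak 3284 bp from icl-1, grey bars are other protein-coding genes on the same strand (upper row) or the opposite strand (lower row), and genes nested inside the named gene are not drawn. Peaks lie before the TSS for pck-1, pyc-1 and fbp-1 and past the 3′ end for pck-1, pck-2, pyc-1 and icl-1.

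Pyruvate carboxylase, which supplies the oxaloacetate that PEP carboxykinase uses, had the most peaks. The gene pyc-1 (WBGene00004258, V:11817783-11822529, minus strand) had 3, where 0.15% of all genes had at least 3. The peak V:11822394-11822837 had a signal of 112.4 and rank 135, overlapped the start of the gene and was centred 87 bp before the most upstream of 3 annotated TSSs. It was the peak closest to the TSS of any of the 6 genes. Its window held 4 cores, or 3 with the palindrome counted once, centred 95, 59, 58 and 49 bp before the TSS, all of them ACGTG on one strand or the other. The only other protein-coding gene within 3000 bp was D2023.4, at 2196 bp, with its 3′ end toward the peak. The GC content of this window was 35.8%, well below that of the pck-1 upstream site.

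A second peak upstream of pyc-1, V:11823998-11824441, had a signal of 120.1 and rank 117 and was centred 1691 bp before the TSS. It held 1 core, 93 bp from the centre. It lay 1469 bp from the body of pyc-1, the farthest of the 9 peaks, and 592 bp past the 3′ end of D2023.4, whose TSS was 1542 bp away and thus slightly nearer than that of pyc-1. The gene mpst-1, for a mercaptopyruvate sulfurtransferase, was 1453 bp away, also with its 3′ end toward the peak, and D2023.6 was 2913 bp away with its TSS 3134 bp from the centre. Of the genes within 3000 bp, pyc-1 and D2023.6 had this peak on the side of their starts. The remaining peak, V:11817064-11817507, was weak, with a signal of 57.62 and rank 541, and was centred 497 bp past the 3′ end of pyc-1. It held 1 core, and no other protein-coding gene lay within 3000 bp of it.

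Fructose 1,6-bisphosphatase had 1 peak, on its upstream side. The gene fbp-1 (WBGene00001404, I:2581015-2586124, minus strand) had it at I:2587331-2587774 with a signal of 77.63 and rank 299, close to the list median. Its centre was 1429 bp before the TSS, and in the 3′ UTR of ptr-12, a gene of the patched-related family that is transcribed in the same direction and ends 26 bp past the centre. The TSS of ptr-12 was 7689 bp away, so the nearest TSS was that of fbp-1. The window held 3 cores, or 2 with the palindrome counted once, and the whole peak 4, all of them ACGTG. It was the only one of the 9 windows with the repeat GAGAGA.

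The glyoxylate gene icl-1 (WBGene00001564, V:724332-728004, minus strand) had 2 peaks, both at the 3′ side of the gene and both with no core near the centre. One, V:724790-725233, lay inside a coding exon of icl-1 with its centre 680 bp before the 3′ end, and had the lowest signal of the 9, 55.37 at rank 582. It held no core in the window or in the whole peak, and fbxb-72 lay 838 bp away with its TSS 1060 bp from the centre. The other, V:723806-724249, had a signal of 86.42 at rank 229 and was centred 304 bp past the 3′ end of icl-1 and 76 bp before the TSS of fbxb-72, which belongs to an F-box family and follows icl-1 on the same strand. That window held no core, and the whole peak held 2, at 105 and 206 bp from the centre. For both peaks fbxb-72 had the nearest TSS, and the nearest TSS of icl-1 itself was 2981 bp and 3965 bp away.

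No peak lay within 3000 bp upstream of icl-1. Just outside the chosen distance, V:731288-731731 had a signal of 90.42 at rank 207 and 3 cores, with its nearest base 3284 bp from icl-1 and its centre 3506 bp before the TSS. It lay in the 5′ UTR of srh-2, a chemoreceptor family gene that starts on the opposite strand, 101 bp from one of the alternative TSSs of that gene. The 2000 bp before icl-1 held 1 core, at 1291 bp, with no peak over it. For the other genes the next peak beyond the chosen distance was 34610 bp away from pyc-1, 42436 bp from fbp-1, 67871 bp from pck-3, 205731 bp from pck-2 and 283431 bp from pck-1.

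Position relative to the gene also varied. A peak centred upstream was present at 3 of the 6 genes (pck-1, pyc-1 and fbp-1), where 3.18% of all genes had one, and a peak centred downstream was present at 4 (pck-1, pck-2, pyc-1 and icl-1), where 2.09% did. At least 2 peaks were present at 3 genes (0.691% of all genes), and peaks on both sides at 2, pck-1 and pyc-1 (0.16%). A peak centre lay within 1000 bp of the 3′ end at 4 genes (1.17%), a distance chosen after the positions had been seen. The signals of the 4 upstream peaks, from 77.63 to 272.3, and those of the 4 downstream peaks, from 57.62 to 86.42, overlapped. The fbp-1 peak, at 77.63, lay within the downstream range, and the other upstream peaks, from 112.4 to 272.3, belonged to pck-1 and pyc-1 alone. Signals of upstream and downstream peaks over the whole list are not given here, and a difference between the sides was not tested. For 5 of the 9 peaks the assigned gene had the nearest TSS. The other 4 were the 2 at icl-1, the downstream peak of pck-1 and the farther upstream peak of pyc-1. Genome-wide, a peak within 3000 bp of a gene body had a mean of 2.34 such genes, and the 9 peaks had from 1 to 4.

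**Figure D3:**
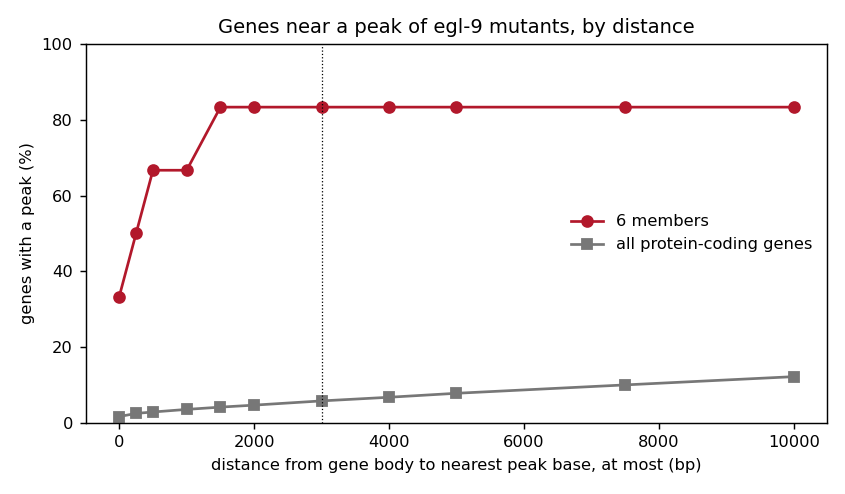
Share of the 6 genes (red) and of all 19973 protein-coding genes (grey) with a peak of egl-9 mutants at or below each distance from the gene body, in bp. The dotted line marks 3000 bp, and the red line stays at 83.3%, or 5 of 6, from 1500 to 10000 bp while the grey line rises from 4.14% to 12.2%.

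With 0 bp allowed, 2 of the 6 genes had a peak (pyc-1 and icl-1), within 500 bp 4 did, and from 1500 to 10000 bp 5 did. Over the same range the share of all genes rose from 1.64% at 0 bp to 12.2% at 10000 bp. The farthest of the 9 peaks lay at 1469 bp and the nearest peak not counted at 3284 bp. In the control list the nearest peaks were between 67886 bp (pck-3) and 3801069 bp (pck-1) away.

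HRE cores were present in the centre window of 7 of the 9 peaks, all but those of icl-1, and in 67.7% of all 604 peaks. At least 3 cores were present in 4 of the 9 windows (both of pck-1, the TSS peak of pyc-1 and that of fbp-1), where 14.4% of all peaks had as many. With each palindrome counted once, 2 of the 9 did (the pck-1 upstream and pyc-1 TSS peaks), where 8.61% of all peaks did, a count added after the values had been seen. The 9 windows held 17 cores in all, or 14 with each palindrome counted once, and 14 of the 17 were ACGTG. Over the whole peaks there were 22 cores. The base before ACGTG was C in 8 of these, T in 6, A in 3 and G in 1. Those with C were palindromes counted on both strands, so they stand for fewer sites than the 6 with T. The base before GCGTG was A in 3 and T in 1. The form AGCGTG was found in the pck-1 upstream and icl-1 downstream peaks, and 2 of the 3 were in the former. Of the 22 cores, 12 were centred within 50 bp of the peak centre, again with palindromes counted on both strands. Preceding bases and distances from the centre are not given here for the cores of all 604 peaks, so these counts are description only.

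**Figure D4:**
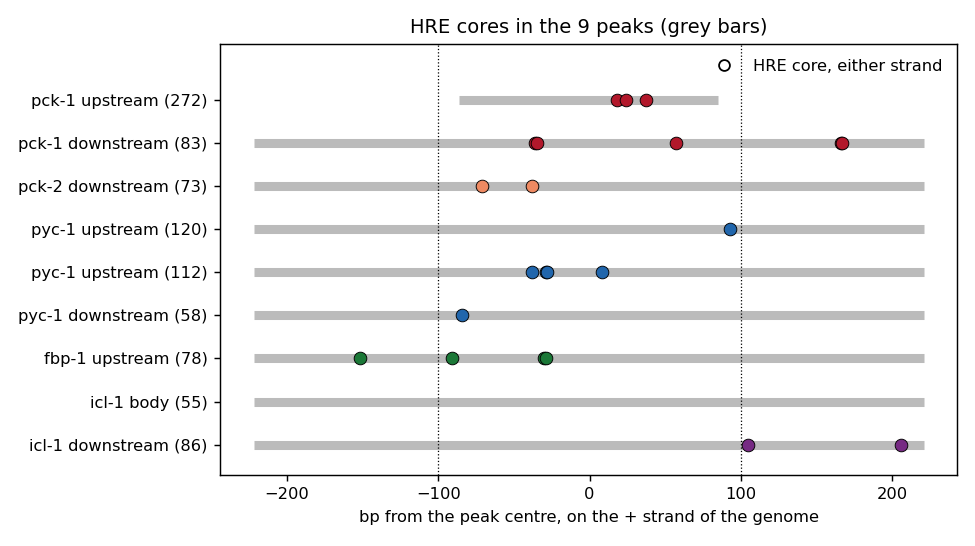
Position of each HRE core (points) in the 9 peaks (grey bars), in bp from the peak centre on the plus strand, with the signal of each peak in parentheses and dotted lines at 100 bp to each side. Points that nearly coincide are the 2 strands of a palindrome. The pck-1 upstream peak holds 3 cores between 18 and 37 bp from its centre, and the icl-1 body peak holds none.

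The repeats GAGAGA and ACACAC were also counted, since both are frequent in the peaks of egl-9 mutants. GAGAGA was present in 1 of the 9 windows (fbp-1) beside 40.9% of all peaks, and ACACAC in 2 (pck-2 and the icl-1 downstream peak) beside 28.3%. Either repeat was in 3 of the 9, beside 56.3% of all peaks. GC content ranged from 31.8% at the pyc-1 downstream peak to 55.2% at the pck-1 upstream peak, with a median of 39.8%. No tRNA, snoRNA or snRNA gene lay within 11554 bp of any of the 9 centres.

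Within the gene bodies and the 3000 bp on each side, the 6 genes had 122 cores, of which 22, or 18.0%, were inside peaks that covered 6.07% of the sequence. This is 5.91 cores per kb inside the peaks and 1.74 outside, with palindromes counted on both strands. Among genes with a peak, the rates ran from 12.99 inside and 1.142 outside at pck-1 to 2.252 and 2.277 at icl-1. The rate over all peaks of the list is not given here. The number of cores before a gene varied widely among the 6. Of all genes, 92.9% had a core in the 2000 bp before the most upstream TSS, with a median of 3, and all 6 genes had at least 1. The genes pyc-1 and fbp-1 each had 11, more than 98.6% of all genes, of which 5 and 4 lay in peaks. That of pyc-1 fell to 2 when counted from its most downstream TSS, and that of fbp-1 to 4 when counted over 1000 bp. The gene pck-1, with the highest signal, had 3, and all 3 lay in its peak. The remaining genes, pck-2, pck-3 and icl-1, had 1 each, and none was in a peak. Cores that lay between the peaks of pyc-1, from 351 to 902 bp before the TSS, were thus not covered by a called peak.

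The neighbouring reactions show where the 6 genes sit among other enzymes of sugar metabolism. Of 11 genes for steps that glycolysis and gluconeogenesis share, 6 had a peak within 3000 bp in egl-9 mutants. The highest, with a signal of 293.7 at rank 15, lay 1712 bp before gpd-2 and, being the same peak, 3060 bp before gpd-3, both of which encode glyceraldehyde 3-phosphate dehydrogenase. The gene tpi-1, for triosephosphate isomerase, had a peak of 204.4 at rank 38, centred 1290 bp before its TSS, and aldo-1, for aldolase, one of 127.1, centred 216 bp before it. The peaks of ipgm-1 (phosphoglycerate mutase) at 71.81 and enol-1 (enolase) at 58.47 were lower, and the genes gpi-1, aldo-2, gpd-1, gpd-4 and pgk-1 had none. In signal, the pck-1 upstream peak thus fell between those of gpd-2 and tpi-1.

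Of 7 genes for the one-way steps of glycolysis, 1 had a peak, the hexokinase gene hxk-3 at 63.9, and none was found near the phosphofructokinase or pyruvate kinase genes. Of 10 genes that supply malate, oxaloacetate or pyruvate, 3 did. They were mdh-1 (malate dehydrogenase) with 152.7 at rank 75, ldh-1 (lactate dehydrogenase) with 122.6 and aco-2 (mitochondrial aconitase) with 83.59. Of 6 genes for sugar stores, 2 did, gsy-1 (glycogen synthase) with 90.84 and tps-2 (trehalose 6-phosphate synthase) with 67.06. Of 6 genes of the pentose phosphate pathway, only tald-1 (transaldolase) did, with 91.01 on its downstream side. These counts stand beside the same 5.78% of all genes, and 0 of the genes in these 5 lists had a control peak within 3000 bp. The lists were chosen with earlier results of these data known, and no test was made of them.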

How the data were processed

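ChIP-seq with anti-GFP antibodies measured HIF-1::GFP in L4 larvae of both genotypes. The submitters' processing notes name BWA and WBcel235, and the study's methods name SPP for peak calling and a filter on the irreproducibility discovery rate (IDR) between the 2 replicates. The authors deposited 1 list per genotype, with replicates pooled. Signal is the value in the signal column that the authors deposited, in SPP units, with no scaling of one list to the other. The lowest values differ from the lowest enrichment in the study's methods, so the column was used for ranks and medians within a list and never compared between lists. The study's methods give read numbers as a range over the 6 libraries, and the depth of each one is not given in the sources used here. The column where q values usually stand was left aside.

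Genes came from Ensembl release 115. Mitochondrial peaks (19 in egl-9 mutants, 18 in the control) were not counted. Distances run from the nearest base of a peak to the gene body, and from its centre to a TSS. Upstream and downstream refer to the side of the peak centre. Cores were counted within 100 bp of the centre on both strands with Python 3.11.15, a palindrome counting once per strand, and the counting was tested on simulated data. Protein sequences were not used here, so the paralogs, planned as a protein comparison, were aligned globally by coding sequence with Biopython 1.88 (match 2, mismatch -1, gap opening -5, gap extension -1), and identity is over aligned bases. The text names the 6 genes, each gene that holds, adjoins or is nearest to one of their peaks, each listed pathway gene with a peak, and the genes of the highest peaks. The pathway genes listed without a peak, and genes within 3000 bp of a peak, were added for completeness. Of the listed genes, got-1.1 was not matched to the annotation. Members and lists were chosen with earlier results of these data known.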

Additional observations from a re-analysis of the deposited data

How the results depend on the processing

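The count of 5 genes with a peak in egl-9 mutants was 4 within 1000 bp of the body (without fbp-1), for peaks above the median signal (without pck-2), and without icl-1 both for peaks whose nearest TSS is that of the gene and for peaks with a core within 100 bp. It stayed 5 within 5000 bp, by peak centre, within 3000 bp of any TSS, and without peaks centred within 500 bp of a small RNA gene. The control count was 0 in each of these settings. Within 1000 bp of the body 3.535% of all genes had a peak of egl-9 mutants, and within 5000 bp 7.791% did. The shares of all genes in the other settings are not given here, so those counts describe the 6 genes only. The settings on cores as a filter, on small RNA genes and on palindromes in the count of at least 3 cores (4 windows, or 2 with palindromes counted once) were chosen after seeing the data. Peaks with a core numbered 7, or 8 over the whole peak, and 5 among peaks above the median signal. The shares of all peaks with a core over the whole peak, or above the median signal, are not given here. The 28 cores in the 2000 bp before the 6 genes became 18 with the most downstream TSS, where pyc-1 went from 11 to 2 and pck-2 from 1 to 0, and 15 within 1000 bp, where pck-1, pck-2 and icl-1 had 0 and fbp-1 4. With ACGTG alone the pck-1 upstream peak held 1 core in place of 3, and pck-2 1 in place of 2. With overlapping peaks merged into 574 regions, the median rank of the 9 peaks went from 253 to 242, and that of the pck-1 upstream peak from 17 to 16. No paired analysis was possible because each genotype has 1 pooled list, and leaving out a replicate could not be run for the same reason.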
